A study of Mus musculus with 5 samples.

Results

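The miR-23a/27a/24-2 and miR-23b/27b/24-1 clusters are a pair of related microRNA loci, each giving a miR-23, a miR-27 and a miR-24. Their mature strands were followed in extracellular vesicles (EVs) from murine mesenchymal stem cells. They were picked by name, with earlier results of these data known, as 9 rows of a count table of 1966 mature miRNAs. Of the 1966, 517 had a count in at least 1 library. Of the 9 members, 8 had a count in some library and 6 in all 5, and miR-24-1-5p had none. The other 5p strands of the clusters, miR-23a-5p and miR-23b-5p, are not among the 9 and are given beside them.

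The 5 libraries were 3 of freeze-dried EVs and 2 of EVs that were not freeze-dried, which the titles call unmodified. All came from mesenchymal stem cells of C57BL/6-GFP transgenic mice, so donors of both groups carried the GFP transgene. All EVs came from medium conditioned for 48 h in a serum-reduced formula, and the freeze-dried ones were frozen in 25 mM trehalose, dried overnight and rehydrated in water. The labels do not say from how many isolations or cultures the cells and EVs came, so the p-values cover the spread among these 5 libraries alone, which may be technical. Nor do they say how the not freeze-dried EVs of these libraries had been stored.

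A primary transcript of each cluster is cut into 3 hairpins, and each hairpin gives a 5p and a 3p strand, of which the 3p strand is the usual guide here. The guide pairs with messenger RNAs mainly through its seed, bases 2 to 8 from the 5′ end. In mesenchymal cells, miR-23a is known to hold back bone formation through Runx2, and miR-27 represses PPARγ, the main switch of fat cell formation. miR-24 is known to repress cell cycle genes, and both clusters are abundant in endothelium, where they take part in vessel growth.

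RefSeq sequences (GRCm38.p6) matched 8 of the 9 members, all but miR-23b-3p. The guide strands are shown because their seeds and their near identity set what the counts can tell apart. Capitals mark the seed.
miR-23a-3p: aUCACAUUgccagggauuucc
miR-27a-3p: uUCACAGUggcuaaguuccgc
miR-27b-3p: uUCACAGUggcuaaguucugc
miR-24-3p: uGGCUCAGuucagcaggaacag
The seed of miR-23a-3p differs from that of miR-27a-3p by 1 base, U7G, counted from the 5′ end of the mature strand. miR-27a-3p and miR-27b-3p have the same seed and differ by 1 base of 21, C19U, so a read that ends before base 19 fits both. The miR-24-3p sequences of the miR-24-2 and miR-24-1 hairpins are identical, and the table gives them 1 row. The clusters' shares of miR-24-3p therefore cannot be told apart by its counts.

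The 5p strands of the miR-24 hairpins are shown because they are the strands that could tell those hairpins apart.
miR-24-2-5p: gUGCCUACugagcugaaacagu
miR-24-1-5p: gUGCCUACugagcugauaucagu
They share their first 16 bases and so the seed, and first differ at base 17. The 5p strands of miR-27 are less alike, with 8 differences over 22 bases and different seeds.
miR-27a-5p: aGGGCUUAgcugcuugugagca
miR-27b-5p: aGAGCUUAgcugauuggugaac
Among the 1679 mature names of the sequence table, no miRNA outside the clusters had the seed of miR-23a-3p or of miR-27. The miR-24-3p seed occurred in 4 others, none of which had a count in these libraries.

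The first cluster lies on chromosome 8, plus strand, with the miR-23a hairpin at 84208518 to 84208592, the miR-27a hairpin at 84208672 to 84208758 and the miR-24-2 hairpin at 84208815 to 84208921 (GRCm38). It spans 404 bases. GENCODE M21 has no other gene over the first 2 hairpins on that strand, and the last 2 bases of the miR-24-2 hairpin overlap an exon of the non-coding gene Gm26532. The second cluster spans 792 bases of chromosome 13, plus strand, inside the protein-coding gene 2010111I01Rik. Its hairpins are miR-23b at 63300484 to 63300557, miR-27b at 63300712 to 63300784 and miR-24-1 at 63301208 to 63301275. miR-23b is intronic in all 9 transcripts that cross it. miR-27b lies in an exon of 1 of 9 transcripts and miR-24-1 overlaps an exon in 4 of 11.

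Library totals ranged from 131507 to 2914305 counts. Freeze-dried replicates 1 and 2 and not freeze-dried replicate 1 are deep (at least 500000 counts). Freeze-dried replicate 3 and not freeze-dried replicate 2 are shallow. The 8 miRNAs listed as mesenchymal markers all had counts. They took 15.2% to 17.6% of the counts in freeze-dried EVs and 21.5% to 21.9% in not freeze-dried EVs, led by miR-21a-5p and miR-143-3p. The series has no library from another cell type, so the marker shares here describe the libraries and do not test cell identity. Endothelial markers, which matter here because the clusters are abundant in that cell type, took 0.00623% to 0.0218% in freeze-dried and 0.0160% to 0.0403% in not freeze-dried EVs, miR-126a-3p with counts in every library and miR-126a-5p at 0 in 3. The liver marker miR-122-5p took 0.00946% to 0.0296% in freeze-dried and 0.00912% to 0.0296% in not freeze-dried EVs, and 4 muscle and 5 neural markers took at most 0.469% and 0.620% of any library. The muscle markers were led by miR-1a-3p and miR-206-3p and the neural ones by miR-129-5p and miR-128-3p, all with counts in every library. Blood markers took 0.0721% to 0.128% in freeze-dried and 0.0894% to 0.0981% in not freeze-dried EVs. They were led by miR-486a-5p and miR-451a, with counts in every library, while miR-142a-3p and miR-142a-5p were at 0 in every library. Epithelial markers, mostly miR-203-3p, took 0.0203% to 0.0412% in freeze-dried and 0.0707% to 0.0736% in not freeze-dried EVs, with miR-200c-3p, miR-141-3p and miR-429-3p at 0.

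Levels are given as TMM-scaled CPM, the read count of a miRNA relative to the library's total after scaling by the trimmed mean of M values. A change shared by all miRNAs of a library would not show in them. The 9 members together took 4.88%, 4.21% and 3.14% of the counts in freeze-dried EVs and 5.38% and 3.84% in not freeze-dried EVs. The groups overlapped, and in each the shallow library had the lowest share. The 5 guide strands kept one order in all 5 libraries, miR-23a-3p first, then miR-24-3p, miR-27b-3p, miR-23b-3p and miR-27a-3p. They ranked 12, 23, 32, 41 and 85 among all miRNAs by mean CPM. Ratios of different miRNAs are ratios of reads, since no standard for the yield of each miRNA was used here.

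**Figure D1:**
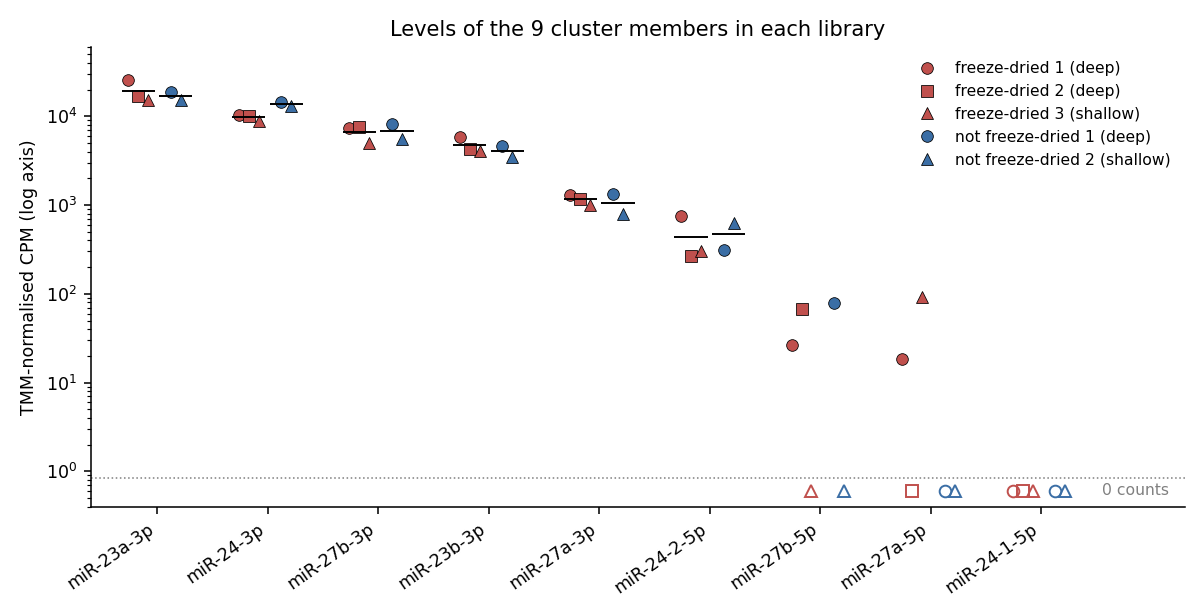
TMM-normalised CPM (log axis) of each member in the 5 libraries, with black bars at the group means where every library of the group has a count and open symbols for 0 counts. The 5 guide strands stand between 790 and 26020 CPM in a fixed order, and the freeze-dried libraries lie below the not freeze-dried ones for miR-24-3p.

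mmu-miR-23a-3p, the most abundant member, stood at 26020, 16981 and 15123 CPM in freeze-dried replicates 1 to 3 and at 19057 and 15254 CPM in not freeze-dried replicates 1 and 2. The groups overlapped, and freeze-dried replicate 1 was the highest library. Its paralog mmu-miR-23b-3p had 5911, 4324 and 4071 CPM in freeze-dried EVs and 4635 and 3473 CPM in not freeze-dried EVs, also with overlap. The log2 fold change from edgeR was 0.18 for miR-23a-3p (SE 0.31, 95% interval -0.52 to 0.87) and 0.23 for miR-23b-3p (SE 0.32, interval -0.48 to 0.94).

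mmu-miR-27b-3p, the more abundant miR-27 guide, had 7318, 7516 and 4994 CPM in freeze-dried EVs and 8202 and 5535 CPM in not freeze-dried EVs. The lowest values were those of the shallow library of each group. mmu-miR-27a-3p was the least abundant guide, at 1301, 1174 and 1008 CPM in freeze-dried EVs and 1326 and 790 CPM in not freeze-dried EVs. Its groups overlapped as well. The log2 fold changes were -0.06 for miR-27b-3p (SE 0.32, interval -0.77 to 0.66) and 0.13 for miR-27a-3p (SE 0.43, interval -0.84 to 1.11).

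mmu-miR-24-3p was the one member whose groups did not overlap. It had 10392, 10107 and 8774 CPM in freeze-dried EVs and 14568 and 12993 CPM in not freeze-dried EVs, so that the highest freeze-dried library stood below the lowest not freeze-dried one. The mean was 9758 ± 864 CPM over the 3 freeze-dried libraries and 13781 ± 1114 CPM over the 2 others (± SD). In edgeR the fold was 0.708, or -0.50 on the log2 scale (SE 0.26, interval -1.08 to 0.08), and it did not pass the test (adjusted p = 0.976). A complete separation in this direction was seen in 8.56% of all 327 tested miRNAs and in 10.1% of the 89 with a mean CPM of 1000 or more. Within depth classes the ratio of mean CPM was 0.704 among deep libraries (2 freeze-dried, 1 not freeze-dried) and 0.675 among shallow ones (1 of each). The summed share of the 8 mesenchymal markers was also lower in every freeze-dried library, and its part in the miR-24-3p values was not tested. Taken singly, these markers were split evenly. By edgeR 4 had a fold over 1 and 4 a fold under 1, and their median on the log2 scale was -0.09. miR-143-3p was lower in every freeze-dried library (mean 43504 against 68975 CPM), while the groups overlapped for miR-21a-5p.

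Of the 8 members that passed the count filter, edgeR called 0 higher and 0 lower in freeze-dried EVs, against a background of 0% and 0% of 327 tested miRNAs. At an unadjusted p under 0.05 edgeR had 0 members and 9 miRNAs in all, and limma-voom 0 members and 15 miRNAs. DESeq2 had 1 member, miR-24-3p, and 16 miRNAs, and 0 were called by limma-voom or DESeq2. With depth class as a term, edgeR had 1 member, miR-24-3p (unadjusted p = 0.0385, adjusted 0.866), and 13 miRNAs, with 0 called. The fitted fold change was above 1 for 4 members and below 1 for 4, beside 51.1% and 48.9% of all tested miRNAs. The 4 above 1 include miR-27a-5p, which had no count in the not freeze-dried libraries, so its direction is not a result. The median log2 fold change was 0.04 over the 8 members, with miR-27a-5p included, and 0.02 over all tested miRNAs. The groups' CPM values did not overlap for 1 of the 8 members and for 17.4% of all tested miRNAs. The 95% interval lay within 2-fold in both directions for 3 members, miR-23a-3p, miR-23b-3p and miR-27b-3p, and for 8.56% of all tested miRNAs. All 3 averaged 1000 CPM or more, and the share among the 89 miRNAs that did was not computed. The 8.56% is therefore not matched to them in abundance.

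**Figure D2:**
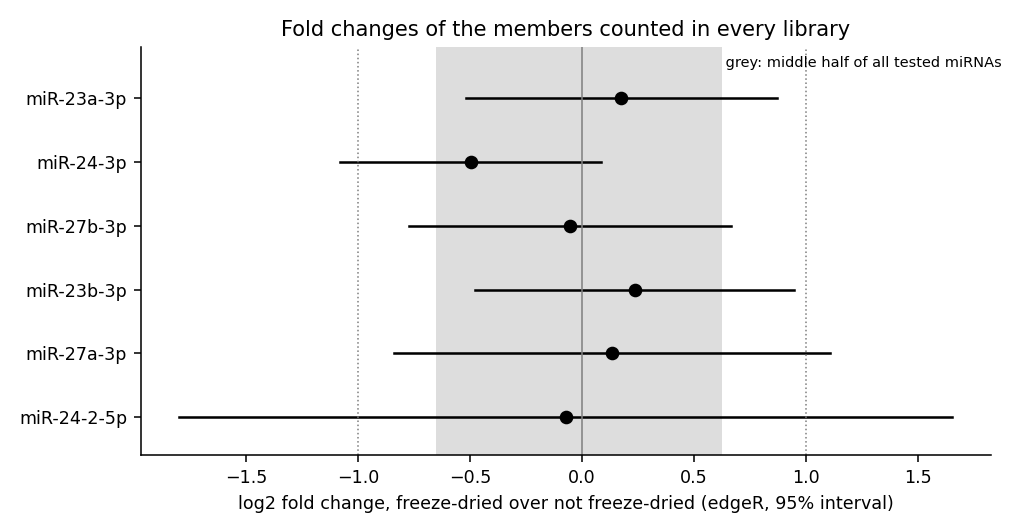
log2 fold change of freeze-dried over not freeze-dried EVs with its 95% interval from edgeR, for the 6 members counted in every library. Grey shading spans the lower to the upper quartile of all 327 tested miRNAs (-0.65 to 0.62), dotted lines mark a 2-fold change, and every interval crosses 0.

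Depth separated the other 4 guides. Each of miR-23a-3p, miR-23b-3p, miR-27a-3p and miR-27b-3p was lower in both shallow libraries than in every deep one. miR-27b-3p spanned 7318 to 8202 CPM in the deep and 4994 to 5535 CPM in the shallow libraries. miR-23a-3p spanned 16981 to 26020 CPM in the deep and 15123 to 15254 CPM in the shallow ones. Of the 89 miRNAs averaging 1000 CPM or more, 41.6% were separated by depth in either direction and 24.7% in this one. miR-24-3p did not split by depth, with 10107 to 14568 CPM in deep and 8774 to 12993 CPM in shallow libraries.

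Within the miR-23 pair, miR-23a-3p held 81.5%, 79.7% and 78.8% of the counts in freeze-dried EVs and 80.4% and 81.5% in not freeze-dried EVs. Over all 5 libraries the share moved by only 2.70 percentage points, and the widest exact 95% binomial interval, in not freeze-dried replicate 2, was 79.9% to 83.0%. Such intervals cover counting error only, and not how reads were assigned between the paralogs. The group means were 79.99% ± 1.37 in freeze-dried EVs (SD, n = 3) and 80.95% ± 0.722 in not freeze-dried EVs (SD, n = 2), a difference of -0.952 points that lay within the spread (exact two-sided permutation p = 0.6, adjusted 0.75).

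Within the miR-27 pair the balance was the other way. miR-27a-3p held 15.1%, 13.5% and 16.8% of the pair in freeze-dried EVs and 13.9% and 12.5% in not freeze-dried EVs, so miR-27b-3p gave most of the reads in every library. The groups overlapped, with means of 15.13% ± 1.64 over the 3 freeze-dried libraries and 13.20% ± 1.01 over the 2 others (± SD). The difference of 1.93 points had an exact two-sided permutation p of 0.4, or 0.667 adjusted. The intervals were 14.6% to 19.2% in freeze-dried replicate 3 and 10.3% to 14.9% in not freeze-dried replicate 2. By the reads as assigned, the chromosome 8 cluster thus led for miR-23 and the chromosome 13 cluster for miR-27 in all 5 libraries.

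**Figure D3:**
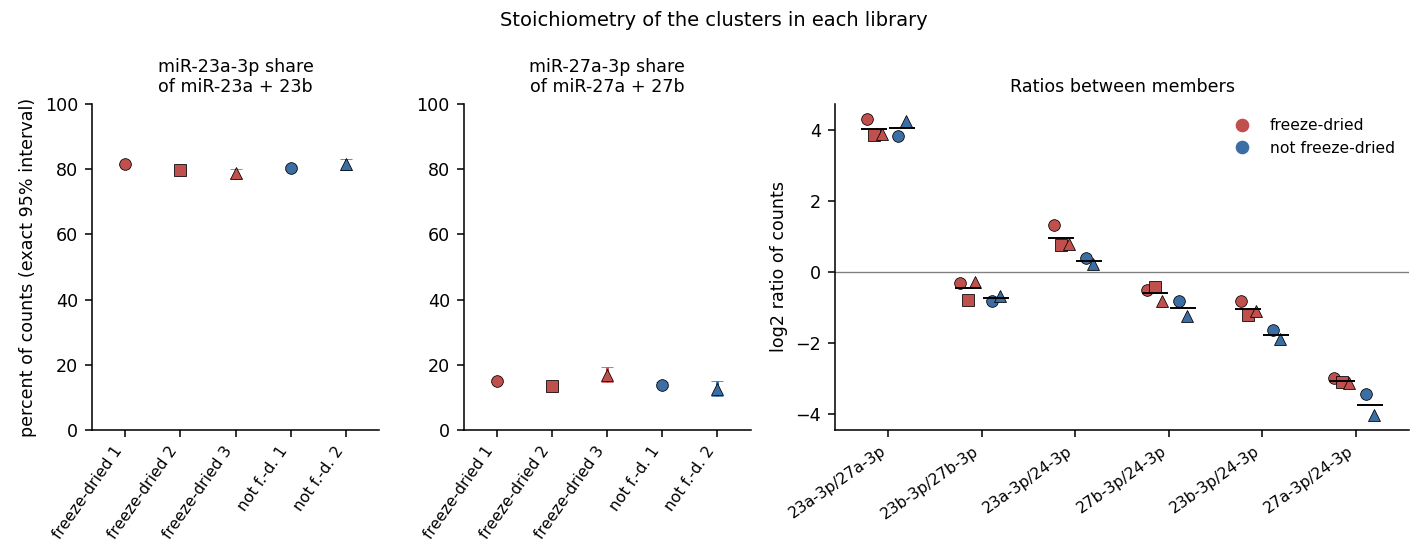
Share of the chromosome 8 member in the miR-23 and miR-27 pairs, in percent with exact 95% intervals (left and middle), and log2 ratios between guide strands (right), per library with bars at the group means. miR-23a-3p holds 78.8% to 81.5% of its pair and miR-27a-3p 12.5% to 16.8% of its own, and all 4 ratios to miR-24-3p lie higher in the freeze-dried libraries.

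Inside the chromosome 8 cluster there were 20.0, 14.5 and 15 reads of miR-23a-3p per read of miR-27a-3p in freeze-dried EVs and 14.4 and 19.3 in not freeze-dried EVs. The groups overlapped (difference of mean log2 ratios -0.03, exact two-sided permutation p = 0.8, adjusted 0.889). Inside the chromosome 13 cluster the corresponding ratio was far smaller, with 0.808, 0.575 and 0.815 reads of miR-23b-3p per read of miR-27b-3p in freeze-dried EVs and 0.565 and 0.627 in not freeze-dried EVs. These groups also overlapped (difference of mean log2 ratios 0.28, exact two-sided permutation p = 0.4, adjusted 0.667). The chromosome 8 members together gave 67.4%, 60.5% and 64.0% of the reads of the 4 guides that can be placed in freeze-dried EVs, and 61.4% and 64.1% in not freeze-dried EVs.

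The ratios of all 4 other guides to miR-24-3p were higher in every freeze-dried library than in both not freeze-dried ones. There were 2.50, 1.68 and 1.72 reads of miR-23a-3p per read of miR-24-3p in freeze-dried EVs and 1.31 and 1.17 in not freeze-dried EVs, without overlap. For miR-27b-3p the ratios were 0.704, 0.744 and 0.569 in freeze-dried EVs and 0.563 and 0.426 in not freeze-dried EVs, also without overlap though only just. The ratio of the groups' geometric means was 1.56 for miR-23a-3p and 1.36 for miR-27b-3p. For miR-23b-3p and miR-27a-3p, added after the values of miR-24-3p were seen, it was 1.66 and 1.60, again without overlap. Each of the 4 had an exact two-sided permutation p of 0.2, the smallest that 3 libraries against 2 can give, and 0.5 after adjustment over the 10 shares and ratios tested.

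The 4 ratios share the miR-24-3p counts and are not independent. Of the 88 other miRNAs averaging 1000 CPM or more, 43.2% had a ratio to miR-24-3p that was higher in every freeze-dried library, and of all 3916 pairs of such miRNAs 20.4% had a ratio without overlap in either direction. Among deep libraries the miR-23a-3p to miR-24-3p ratio was 1.57 times as high in freeze-dried EVs, and among shallow ones 1.47 times. For miR-27b-3p these values were 1.29 and 1.34. As parts of the 5 guides, miR-24-3p took 20.4%, 25.2% and 25.8% in freeze-dried EVs and 30.5% and 34.2% in not freeze-dried EVs. The miR-23 guides took 62.7%, 53.1% and 56.5% in freeze-dried EVs and 49.6% and 49.2% in not freeze-dried EVs, while the miR-27 guides, at 16.9%, 21.7% and 17.7% in freeze-dried EVs against 19.9% and 16.6% in not freeze-dried EVs, overlapped.

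The SD over the 5 libraries of the log2 ratio of 2 miRNAs (0.5 counts added) measures how fixed their ratio was, a small SD meaning a fixed ratio. It was 0.106 for miR-23a-3p and miR-23b-3p, which come from different chromosomes, each the closest partner of the other among 88 miRNAs. No sequence of miR-23b-3p was matched here. How well its reads can be told from those of miR-23a-3p, and what read assignment adds to this SD, was not tested. For miR-27a-3p and miR-27b-3p it was 0.190, which put miR-27b-3p at rank 4 for miR-27a-3p and miR-27a-3p at rank 8 for miR-27b-3p. Within clusters it was 0.235 for miR-23a-3p and miR-27a-3p and 0.260 for miR-23b-3p and miR-27b-3p, both above the SDs of the paralogs. miR-27a-3p and miR-23b-3p, which are neither paralogs nor neighbours in a cluster, had an SD of 0.161, below that of the miR-27 paralogs. The median SD over all 88 partners was 0.522 for miR-23a-3p. These points share libraries and depth, and the SDs are a description.

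miR-24-3p had higher SDs with the other guides than those guides had with each other. Its SD was 0.423 with miR-23a-3p, 0.435 with miR-23b-3p, 0.423 with miR-27a-3p and 0.318 with miR-27b-3p, at ranks 35, 37, 34 and 14 of 88. Each of these lay below the median SD over all its 88 partners, 0.501. The miRNAs closest to miR-24-3p were miR-99a-5p (SD 0.111), miR-93-5p (0.115) and miR-99b-5p (0.129). Closest to miR-23a-3p outside the clusters were miR-26a-5p (0.128), miR-30a-5p (0.190) and let-7g-5p (0.206), and the same 3 were the closest to miR-23b-3p. Closest to both miR-27 guides was miR-125b-5p (0.145 with miR-27a-3p, 0.108 with miR-27b-3p). It was followed for miR-27a-3p by miR-196b-5p (0.149) and miR-206-3p (0.192), and for miR-27b-3p by miR-30a-5p (0.117) and miR-129-5p (0.152).

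**Figure D4:**
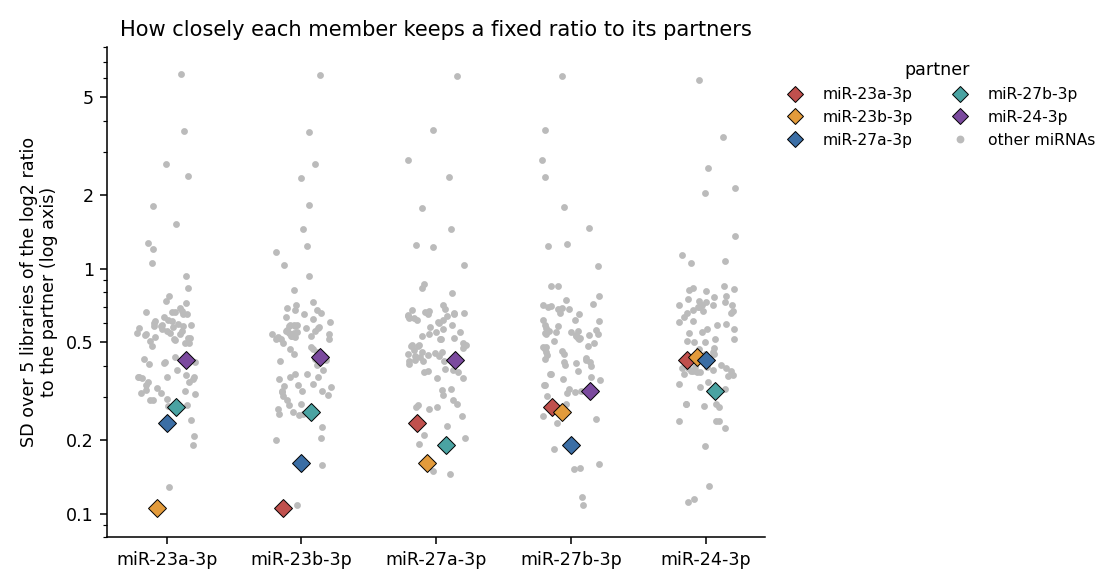
SD over the 5 libraries of the log2 ratio between each guide strand and each other miRNA that averaged 1000 CPM or more (log axis). Diamonds are the other guides of the clusters and grey points the remaining miRNAs. The miR-23 guides lie lowest with each other (0.106), and the ratios to miR-24-3p (0.318 to 0.435) lie higher, among the grey points.

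The narrow range of the miR-23 share was set beside 16 other pairs of related miRNAs, of which 9 had at least 500 counts together in every library. Of the 11 pairs that reached this, the miR-23 pair had the smallest range (2.70 points) and the smallest SD of the log2 ratio, and the miR-27 pair the second smallest range (4.31 points) and the fourth smallest SD. The median range of the 9 others was 6.94 points, that of miR-221-3p and miR-222-3p, a pair from 1 cluster. The share of miR-181a-5p beside miR-181b-5p was 35.6%, 48.0% and 39.3% in freeze-dried EVs and 58.5% and 52.9% in not freeze-dried EVs. That of miR-146a-5p beside miR-146b-5p ran from 22.9% to 90.6% over the 5 libraries, high in the shallow ones. The groups' shares did not overlap for 2 of the 11 pairs, those of miR-125 and miR-181.

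**Figure D5:**
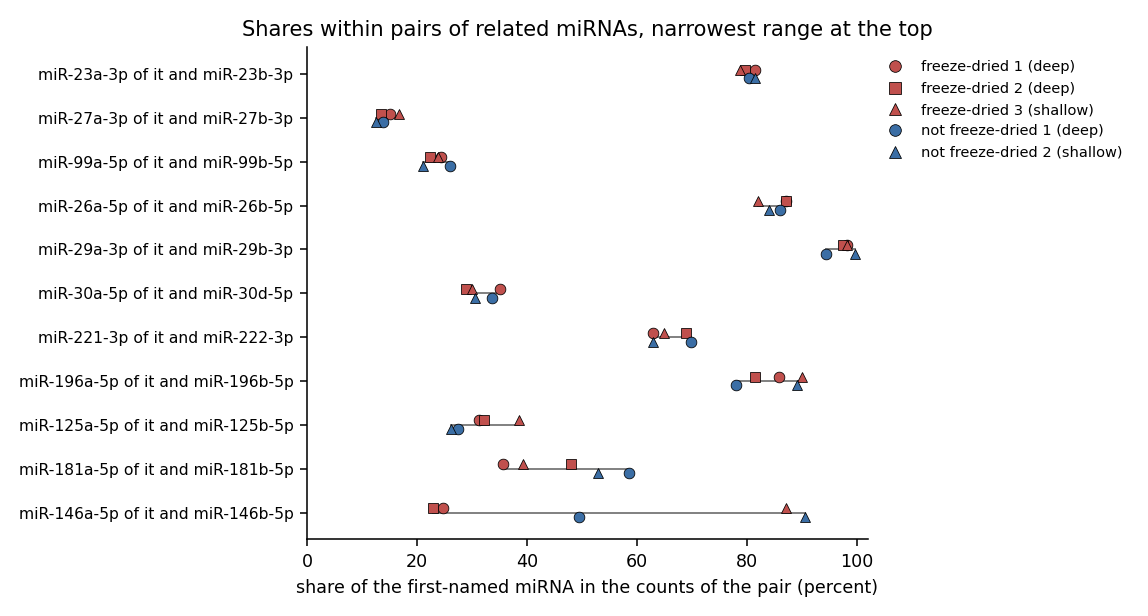
Share of the first-named miRNA in the counts of each pair (percent), per library, for the 11 pairs with at least 500 counts in every library, with a line from the lowest to the highest library. The miR-23 pair at the top spans 78.8% to 81.5%, the miR-27 pair 12.5% to 16.8%, and the miR-146 pair at the bottom 22.9% to 90.6%.

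The 5p strands were scarce and varied more. mmu-miR-24-2-5p, the most abundant of them, had 761, 264 and 302 CPM in freeze-dried EVs and 313 and 621 CPM in not freeze-dried EVs, from 2090, 679 and 53 counts and from 319 and 81. Its high values lay in 1 library of each group, and the log2 fold change was -0.07 (SE 0.77, interval -1.80 to 1.65). As a share of all miR-24 reads, the 5p strands made up 6.82%, 2.54% and 3.32% in freeze-dried EVs and 2.10% and 4.56% in not freeze-dried EVs.

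mmu-miR-24-1-5p, the strand that only the chromosome 13 cluster gives, had 0 counts in all 5 libraries. All reads that could tell the miR-24 hairpins apart by their 5p strand were thus those of the chromosome 8 cluster, which in freeze-dried replicate 1 means 2090 of 2090. A count of 0 there allows a miR-24-1-5p share of these reads of up to 0.144%, and of up to 5.66% in freeze-dried replicate 3, where 53 reads were seen. In the not freeze-dried libraries it allows up to 0.940% and 3.70%. These values concern the 5p strands and do not divide the miR-24-3p counts.

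mmu-miR-27b-5p had 26.6, 66.8 and 0 CPM in freeze-dried EVs and 78.5 and 0 CPM in not freeze-dried EVs, so it was counted in the 3 deep libraries and at 0 in both shallow ones. A count of 0 there allows up to 17.1 CPM in the freeze-dried and 23 CPM in the not freeze-dried library. Its share of the reads of its hairpin was 0.362%, 0.881% and 0% in freeze-dried EVs and 0.948% and 0% in not freeze-dried EVs (exact two-sided permutation p = 1, adjusted 1). For this share, 0 reads allow up to 0.342% in freeze-dried replicate 3 and 0.416% in not freeze-dried replicate 2. The second is above the 0.362% of freeze-dried replicate 1, and the test took both as 0. miR-23b-5p of the same cluster was at 0 in the same shallow libraries, with 32.8, 56.3 and 0 CPM in freeze-dried EVs and 77.5 and 0 CPM in not freeze-dried EVs.

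mmu-miR-27a-5p had 51, 0 and 16 counts in freeze-dried EVs and 0 in both not freeze-dried libraries, or 18.6, 0 and 91.1 CPM in the freeze-dried libraries. It passed the count filter only through the freeze-dried libraries, so the direction of its fold change is not a result. A count of 0 allows up to 2.94 and 23 CPM in the not freeze-dried libraries, the second of which is above the 18.6 CPM of freeze-dried replicate 1. Freeze-dried replicate 2, with 2473178 counts, had none, which allows up to 1.17 CPM, and the edgeR interval of the log2 fold change was -2.90 to 20.0. Its share of its hairpin's reads was 1.41%, 0% and 8.29% in freeze-dried EVs and 0% in both not freeze-dried libraries (exact two-sided permutation p = 0.6, adjusted 0.75). In the not freeze-dried libraries 0 reads allow a share of up to 0.222% and 2.91%. The second is above the 1.41% of freeze-dried replicate 1. The test took these shares as 0, so it cannot decide whether the groups differ. miR-23a-5p was counted in every library, at 38.9, 97.9 and 421 CPM in freeze-dried EVs and 77.5 and 38.3 CPM in not freeze-dried EVs, the last from 5 counts.

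Lists of miRNAs with roles that the clusters share gave no calls, but 0% of all 327 tested miRNAs were called higher or lower. The 0 calls below are therefore no result about these lists. Of 11 miRNAs reported to target Runx2 in bone cells, miR-23a-3p among them, 5 were tested and edgeR called 0 higher and 0 lower. Their median log2 fold change was 0.31 beside 0.02 over all tested miRNAs. That median is the value of 1 miRNA with an SE of 2.36. The most abundant miRNA of this list outside the clusters was miR-30c-5p (log2 fold change 0.53, SE 0.42), followed by miR-218-5p (0.77, SE 1.22). Of 10 miRNAs linked to fat cell formation, with both miR-27 guides, 8 were tested, 0 were called either way and the median was -0.35. That median lies between the -0.06 of miR-27b-3p and a value of -0.64 with an SE of 2.87. This list was led by miR-143-3p at 46980, 48588 and 34944 CPM in freeze-dried EVs and 60911 and 77039 CPM in not freeze-dried EVs (log2 fold change -0.66, SE 0.26). For miR-103-3p that value was 0.27 (SE 0.37). Of 14 miRNAs of endothelium and vessel growth, which hold all 5 guides, 12 were tested and 0 called either way, with a median of 0.03. Outside the clusters these were led by miR-92a-3p (log2 fold change -0.18, SE 0.81) and miR-221-3p (-0.07, SE 0.25).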

How the data were processed

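Small RNA of EVs was sequenced in 5 libraries. The authors deposited 1 table of raw counts, with a row for each mature miRNA. Named in the submitters' processing notes are GRCm38, featureCounts 1.5.0-p1, Bowtie 1.1.2, cutadapt 2.3, bcl2fastq 2.20 and FastQC. The sources used here do not give the miRNA annotation or how reads with several matches, strand and duplicates were handled. Reads of the near-identical members may therefore have been split or lost.

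Groups came from the titles. Counts were tested in R 4.3.3 by the robust quasi-likelihood test of edgeR 4.0.16 after TMM scaling and filterByExpr, and p-values were adjusted by Benjamini-Hochberg over 327 miRNAs, with a threshold of 0.05. The fit was tested on simulated data. Shares and ratios were compared by exact permutation over libraries (two-sided, scipy 1.17.1), with p-values adjusted over 10 of them. Totals of 131507 to 2914305 counts set the precision. A count of 0 was given an upper limit of 3 counts.

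Named miRNAs are the members, the 3 outside the clusters closest to each guide, the called or otherwise 2 most abundant of each list, and the 2 most abundant markers where values are given. Members and lists were chosen with earlier results of these data known, as was the division into deep and shallow libraries. Alternatives were other normalizations and filters, DESeq2 1.42.0, limma-voom (limma 3.58.1), pooled counts, another pseudocount, depth classes, leaving out each library and a replicate block. Coordinates are from RefSeq and GENCODE M21, both GRCm38.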

Additional observations from a re-analysis of the deposited data

How the results depend on the processing

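The count of 0 miRNAs called higher held in every alternative run. The count of 0 called lower became 4 with the replicate block and 1 in the deep libraries alone, a fit added after seeing the data, and no member was among these. Without 1 library the counts were 0 and 0. The replicate numbers are shared by only 2 pairs, whose deviations from the group means correlated at 0.12 and -0.134. With only 2 not freeze-dried libraries, the deviations of 1 are those of the other with the sign reversed. These correlations therefore cannot show or exclude a pairing.

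The log2 fold change of miR-24-3p stayed below 0 in all 15 alternatives (-0.63 to -0.35), with adjusted p-values of 0.79 to 0.999 from edgeR, DESeq2 and limma-voom. That of miR-27a-5p also kept its sign in the 11 alternatives that gave a value (1.32 to 8.81), its not freeze-dried libraries being at 0. Those of the other 6 tested members changed sign in some alternatives, and the cause was not tested. With the replicate block they were 0.14 for miR-27b-3p, 0.0274 for miR-24-2-5p and 1.59 for miR-27b-5p. With library totals only, which put the median over all tested miRNAs at -0.094 in place of 0.015, miR-27a-3p had -0.0149. With limma-voom, miR-24-2-5p had 0.34. In the deep libraries alone, miR-27a-3p had -0.12 and miR-24-2-5p 0.68. Without 1 library the ranges were -0.0829 to 0.41 for miR-23a-3p, -0.0017 to 0.52 for miR-23b-3p, -0.23 to 0.62 for miR-27a-3p, -0.35 to 0.32 for miR-27b-3p, -0.70 to 0.46 for miR-24-2-5p and -1.51 to 8.48 for miR-27b-5p.

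The 4 ratios to miR-24-3p stayed higher in freeze-dried EVs throughout. Without 1 library the difference of log2 ratios was 0.457 to 0.745 for miR-23a-3p, 0.247 to 0.649 for miR-27b-3p, 0.603 to 0.855 for miR-23b-3p and 0.382 to 0.965 for miR-27a-3p. The difference in the miR-23a-3p share of its pair became 0.226 points with pooled counts and 0.161 in the deep libraries, and was -1.70 to -0.35 without 1 library. The difference in the log2 ratio of miR-23a-3p to miR-27a-3p became 0.241 with pooled counts and 0.243 in the deep libraries, and was -0.244 to 0.183 without 1 library. That in the 5p share of miR-27b was -0.534 to 0.414 points without 1 library, and has no value in the shallow libraries, both at 0. Several 5p strand values rest on fewer than 100 counts a library, which limits their precision.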
